A study of Mus musculus with 84 samples.

Results

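Adipokines are proteins that fat cells secrete into the blood or release to neighbouring cells. The genes described here were chosen by name as a set of 8 such factors, Lep, Adipoq, Retn, Cfd, Rbp4, Nampt, Apln and Nrg4, out of 21851 protein-coding mouse genes. For each gene the peaks of 4 histone marks were read at its promoter, in its body and in the 50 kb on either side. CUT&Tag, a method that inserts sequencing tags next to an antibody bound to chromatin, was applied to adipocyte nuclei of epididymal fat, with the question whether the chromatin of obesity outlasts weight loss. The data comprised 84 libraries, each given as 1 peak list.

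All mice were males that carried a tamoxifen-inducible Cre driven by Adipoq sequences and the NuTRAP reporter (AdipoERCre x NuTRAP), and all received tamoxifen before the diets began. C and H mice were 18 weeks old, and the H mice had eaten a high-fat diet for 12 weeks. CC_s and HC mice were 26 weeks old, and the HC mice had been fed as H and then chow for 8 weeks. CC_l and HH mice were 31 weeks old, with 25 weeks of high-fat diet in HH. CCC and HHC mice were 39 weeks old, and the HHC mice had been fed as HH and then chow for 8 weeks. C, CC_s, CC_l and CCC were the chow controls, and each group held 2 or 3 libraries per mark, each from its own animal. Per the study's methods, controls ate a low-fat chow while the others ate the high-fat diet. In the weight-loss period CC_s, HC, CCC and HHC all ate a standard chow. Labelling depended on Adipoq-driven Cre, so nuclei that never switched on the transgene were not meant to be captured, and the transgene itself carries Adipoq sequence.

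Leptin, from Lep, reports fat stores to the brain and restrains feeding, whereas adiponectin, from Adipoq, is released by adipocytes and raises insulin sensitivity. Both are secreted mainly by mature fat cells, as are resistin (Retn, linked to insulin resistance in mice) and adipsin (Cfd, the complement factor D protease). H3K4me3 marks active promoters, H3K27ac active promoters and enhancers, H3K4me1 enhancers, and H3K27me3 regions silenced by polycomb proteins.

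The promoters of the 8 genes were of unlike kinds, and 5 of them are printed because they carry most of the results below and show this contrast. Each sequence is the 200 bases before the RefSeq start site in build GRCm38.p6, written 5′ to 3′ on the strand of the gene, from chr6:29060021-29060220 (Lep, plus), chr16:23146336-23146535 (Adipoq, plus), chr8:3655570-3655769 (Retn, plus), chr10:79890653-79890852 (Cfd, plus) and chr19:38124812-38125011 (Rbp4, minus). Capitals mark matches on either strand to the TATA box letters TATAA, to the CCAAT box, to a C/EBP pattern (TTNNGCAA) or to the GC box (GGGCGG).
Lep: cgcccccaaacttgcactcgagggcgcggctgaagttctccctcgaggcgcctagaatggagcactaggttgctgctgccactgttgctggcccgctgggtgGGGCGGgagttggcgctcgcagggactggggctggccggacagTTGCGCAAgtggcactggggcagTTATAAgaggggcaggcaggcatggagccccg
Adipoq: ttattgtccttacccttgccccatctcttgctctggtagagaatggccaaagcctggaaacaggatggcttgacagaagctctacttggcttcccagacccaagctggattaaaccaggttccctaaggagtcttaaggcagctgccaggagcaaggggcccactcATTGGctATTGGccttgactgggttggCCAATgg
Retn: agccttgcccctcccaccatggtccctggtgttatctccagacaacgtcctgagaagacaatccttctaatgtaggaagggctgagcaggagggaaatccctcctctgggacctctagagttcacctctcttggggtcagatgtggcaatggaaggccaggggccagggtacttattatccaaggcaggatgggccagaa
Cfd: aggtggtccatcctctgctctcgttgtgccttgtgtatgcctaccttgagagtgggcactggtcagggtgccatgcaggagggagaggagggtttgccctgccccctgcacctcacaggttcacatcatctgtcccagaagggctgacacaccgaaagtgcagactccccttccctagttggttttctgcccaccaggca
Rbp4: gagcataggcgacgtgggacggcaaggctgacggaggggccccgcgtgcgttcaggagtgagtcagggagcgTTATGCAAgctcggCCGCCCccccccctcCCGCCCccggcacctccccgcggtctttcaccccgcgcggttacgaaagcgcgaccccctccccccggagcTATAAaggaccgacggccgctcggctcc
Among 32851 RefSeq promoters, 18.5% held the TATA letters in such a stretch, 29.3% held the CCAAT box, 7.47% held the C/EBP pattern and 31% held the GC box. The Lep stretch held the TATA letters from -31 to -27, and the same place matched on the opposite strand from -32 to -28. It also held 1 C/EBP match that reads the same on both strands, from -55 to -48, and a GC box from -98. Rbp4 held the TATA letters from -28, a C/EBP match from -128 and 2 GC boxes. Adipoq held 3 CCAAT boxes and no match to the other motifs, and Retn, Cfd and Nrg4 matched none of the 4 motifs. Nampt held 4 GC boxes and Apln held 1. In the 300 bases from 250 before to 50 after the start site, Rbp4 had 40 CpG dinucleotides, Nampt 36, Lep 19, Apln 15, Nrg4 13, Retn 2, Cfd 2 and Adipoq 0, against a median of 7 over all promoters. The genes thus ranged from CpG-rich promoters to one without a CpG. All 8 genes matched the RefSeq table, and a match is a description of letters, not a bound site.

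On GRCm38 the genes lay at chr6:29060220-29073877 (Lep, plus strand), chr16:23146536-23158028 (Adipoq, plus), chr8:3655770-3660110 (Retn, plus), chr10:79890853-79892655 (Cfd, plus), chr19:38116629-38125281 (Rbp4, minus), chr12:32819545-32853349 (Nampt, plus), chrX:48025146-48034853 (Apln, minus) and chr9:55220222-55326844 (Nrg4, minus). The promoter window of a gene was 2000 bp on either side of each annotated start site. Its covered share is the percentage of the window that lay under peaks, so it is a value per length and can be compared between genes. Rbp4 and Nrg4 had 2 start sites each, one Nrg4 window overlapped that of Tmem266, and Cfd lay whole inside its own window and therefore had no separate body. Peaks were the top 1% of signal blocks of a library. A window without a peak was thus not shown to lack the mark.

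Libraries differed in how much they held, and 3 animals stood apart. The H3K4me3 lists held 11249 to 41976 peaks and the H3K27ac lists 12174 to 41989. The mean covered share of all promoters was lower in H than in C, at 10.7% to 23.9% against 29.2% to 32.9% for H3K4me3 and 3.60% to 9.74% against 13.9% to 16.5% for H3K27ac. Of 8 adipocyte markers other than Lep and Adipoq, 7 had an H3K4me3 peak in every library. Their mean cover was nevertheless lower in H than in C, at 24.2% to 53.3% against 82.6% to 92.5% for H3K27ac and 42.1% to 60.7% against 80.7% to 84.9% for H3K4me3, and lower in HC than in CC_s for H3K27ac, at 39.1% to 63.7% against 78.2% to 81.5%. By contrast none of 4 neuronal markers had an H3K27ac peak in any library. Macrophage markers with an H3K4me3 peak numbered 0 to 3 of 8 in the control libraries, 7 or 8 in H replicates 1 and 2 and 0 in H replicate 3, 7 in both HH libraries, 0 to 5 in HC and 7 in all 3 HHC libraries. Lymphocyte markers with such a peak numbered 0 to 2 of 6 in the control libraries, 0 in H, 0 to 3 in HC, 3 or 4 in HH and 5 or 6 in HHC. HC replicate 3, HHC replicate 3 and HH replicate 1 (with no H3K4me3 or H3K27me3 library) had the thinnest cover around Adipoq, and their H3K27ac cover of adipocyte markers was 1.73 to 2.68 times the mean of all promoters, against 2.72 to 13.9 times in the other libraries. They had peaks at 4 or 5 of 6 endothelial markers for H3K27ac, where the other libraries had 0 to 2. For H3K4me3 these counts overlapped, at 4 or 5 against 0 to 6. The H3K27ac counts of macrophage markers (4 or 5 against 0 to 7) and progenitor markers (4 or 5 against 0 to 5) overlapped as well. So did those of lymphocyte markers (1 or 2 against 0 to 6). The 6 of 6 were in HHC replicate 1, which stays in the results without the 3 animals. Called results are therefore also given without these 3 animals, a step chosen after the data were seen, or said to have stayed called. None of them entered the obese comparison of H3K4me3 or H3K27me3. In pooled nuclei, fewer nuclei of a type and less mark per nucleus cannot be told apart, and the part of other cell types in the results was not tested.

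In chow controls H3K4me3 covered the promoters of the 8 genes to unlike extents, from above 99.95% of all genes for Adipoq, 97.54% for Retn and 92.6% for Lep down to 62.37% for Apln. Over the 10 control libraries the H3K4me3 covered share was 99.6% ± 1.35 (SD, n = 10) for Adipoq, followed by Retn at 83.6%, Lep at 73.5%, Cfd at 69.6%, Nampt at 69.1%, Rbp4 at 61.2%, Nrg4 at 55.4% and Apln at 42.7%. The median over all genes was 27.5%. Of the neighbours in this order, Adipoq stood above Retn and Nampt above Rbp4 by more than the SD of their difference between libraries, while the other neighbours did not. Rbp4 encodes the carrier of retinol in blood, Nampt an NAD-producing enzyme that is also secreted, Apln the vasoactive peptide apelin and Nrg4 the epidermal growth factor family ligand neuregulin 4.

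H3K27ac gave a similar order with a wider range. Adipoq was covered over 100% of its window in all 9 control libraries, then came Retn at 92.1%, Cfd at 80.8%, Lep at 71%, Nampt at 63.2%, Rbp4 at 51.9%, Nrg4 at 31.6% and Apln at 8.81%, against an all-gene median of 5.67%. By signal within the library the order of the hormones changed. The strongest H3K27ac promoter peak of Adipoq exceeded 99.98% of the peaks of its library on average, that of Lep 99.4% and that of Retn 98.5%, whereas the mean for Apln was 6.66% with libraries lacking a peak set to 0. H3K4me1 separated the genes further, with Adipoq at 95.5%, Cfd at 65.8%, Retn at 52.1% and Lep at 0 in all 10 control libraries. The Lep window was thus broadly covered by H3K4me3 and H3K27ac and had no H3K4me1 peak in controls. In controls H3K27me3 peaks were present in at most 4 of 10 libraries at the genes other than Adipoq, which had a mean of 77.9% ± 21.8 (SD, n = 10), and Cfd and Nampt had none in any of the 20 libraries of all groups. Over those 20 libraries Rbp4 and Nrg4 had a peak in 11 each, Retn in 9 and Apln in 6. At Lep an H3K27me3 peak was present in 4 of 20 libraries, covering 99.2% of the window in CC_l replicate 1, 21.1% in HC replicate 3, 12.2% in HHC replicate 2 and 28.6% in HHC replicate 3.

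**Figure D1:**
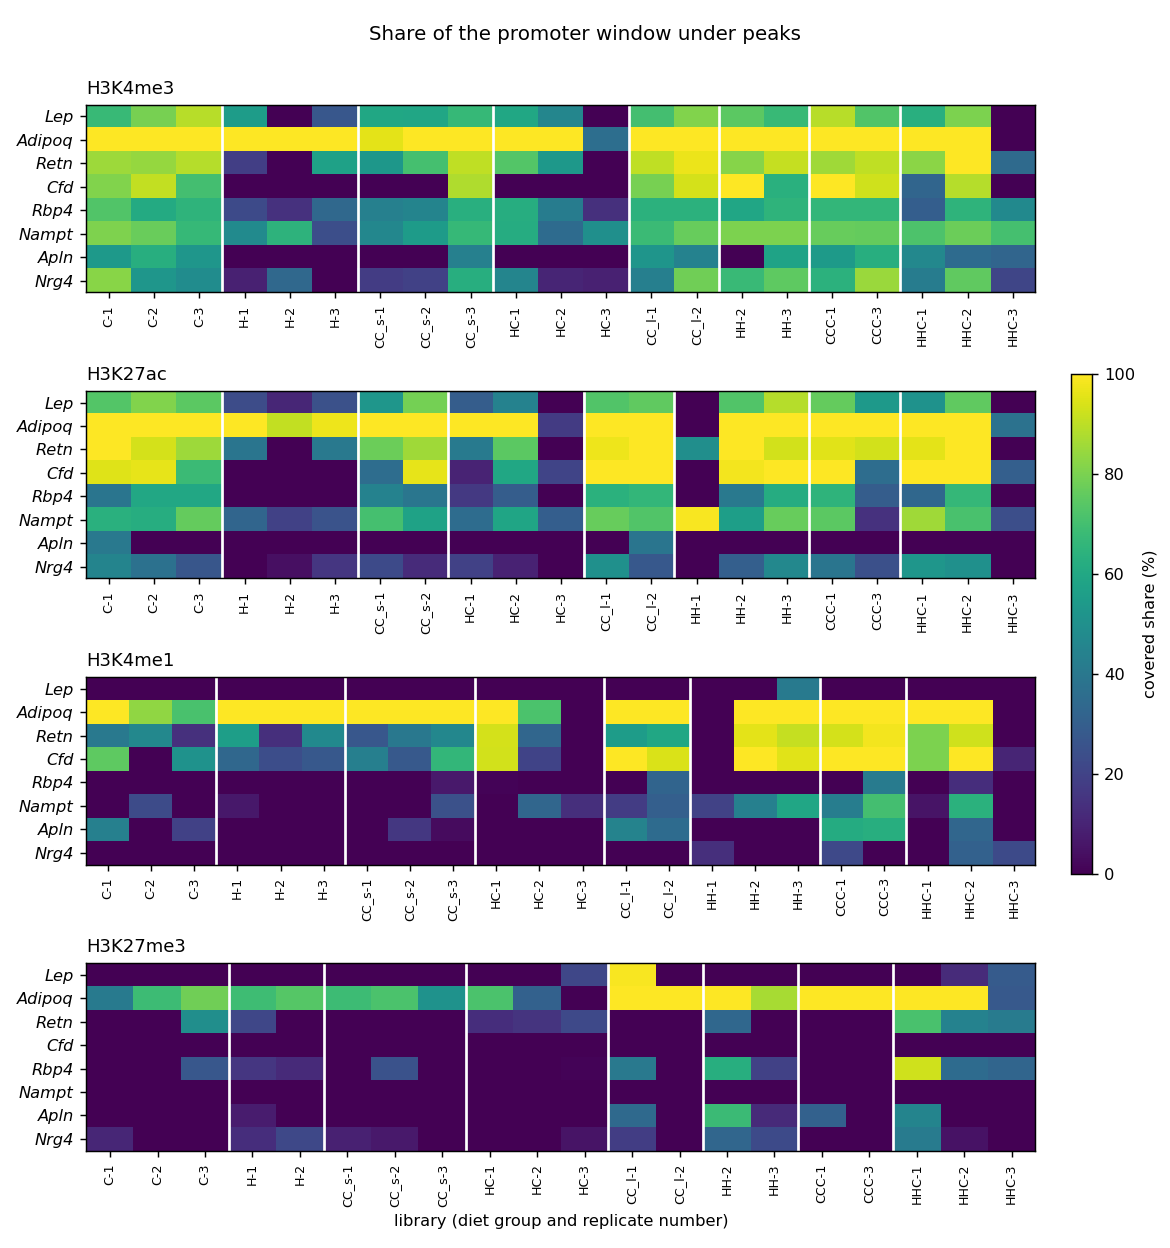
Covered share (%, colour scale from 0 to 100) of the promoter window of each of the 8 genes (vertical axis) in each library (horizontal axis, diet group and replicate number), with 1 panel per mark. Adipoq is near 100% in almost all columns of H3K4me3 and H3K27ac, the H columns of these marks are dark (low cover) for Cfd, Rbp4 and Apln, and Cfd and Nampt are at 0 throughout H3K27me3.

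Adipoq differed from the other genes in that its chromatin was covered far beyond the promoter, and by all marks at once. A stretch of 136 kb on chromosome 16, from 14.5 kb before to 121 kb after the Adipoq start site and also holding St6gal1, a sialyltransferase gene, was delimited by H3K27me3 peaks. In the animals other than the 3 apart, the median share of this stretch under peaks was 44.8% for H3K4me3, 43% for H3K27ac, 47.7% for H3K4me1 and 49.8% for H3K27me3. Cover dropped at its far end, since in the next 200 kb the medians were 0.402%, 2.10%, 4.14% and 0.212% in the same order of marks. The H3K27me3 figures are a description, because that mark set the ends of the stretch. In the same animals the flanks of Adipoq were covered over 45.2% for H3K4me3, 44.8% for H3K27ac, 43.5% for H3K4me1 and 36.5% for H3K27me3 on average, more than 99.97%, 100%, 99.98% and 99.46% of all genes.

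Active and polycomb marks thus both had peaks across this stretch. The 3 animals apart were set apart by thin cover here, so their values are a description. In their libraries the share of the stretch under peaks was 4.62% to 6.87% for H3K4me3, 4.97% to 18.1% for H3K27ac, 4.18% to 14.3% for H3K4me1 and 0 to 2.70% for H3K27me3. The lowest values of the other animals were 11.4%, 15.5%, 18.3% and 24.3%, the H3K27ac ranges overlapping. At the Adipoq promoter the H3K4me3 share was 36% in HC replicate 3 and 0 in HHC replicate 3, and 95.7% to 100% in the other 19 libraries. Its H3K27ac share was 17.4% in HC replicate 3, 37.8% in HHC replicate 3 and 0 in HH replicate 1, against 90.8% to 100% elsewhere. With most windows at or near 100%, this share cannot show further differences. The widest H3K27ac peak at the Adipoq promoter spanned 21197, 22925 and 21097 bp in C and 14451, 2990 and 5179 bp in H, and the widest H3K4me3 peak 12364, 22234 and 11283 bp in C and 8902, 5916 and 7790 bp in H. The peaks of all H libraries were thus narrower than those of all C libraries in both marks. The median width of all peaks of a library separated these groups too. It was 477 to 801 bp in H against 1372 to 1765 bp in C for H3K27ac. For H3K4me3 it was 850 to 1115 bp against 1439 to 1692 bp. The H3K27me3 share of the window ran from 31% to 100% in the other animals. Fragments from the Cre transgene and from the gene itself cannot be told apart in these lists, and the number and extent of transgene copies was not tested.

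Obese mice were compared with controls of their age, H with C and HH with CC_l, and the differences of the 2 cohorts were averaged. Each p-value is from an exact permutation test, two-sided, of the labels within cohorts. The smallest value it can give in obese mice is 0.0167 for H3K4me3 and H3K27me3 and 0.005 for the other marks, and after weight loss it is 0.01 for H3K27ac and 0.005 for the others. A member was called at an unadjusted exact p under 0.05. No promoter of the 8 genes passed when p was adjusted over all 21851 promoters (Benjamini-Hochberg), where the lowest adjusted exact p was 0.379. Of the 8 genes, 2 were called lower for H3K4me3, against 2.54% of all promoters, 4 for H3K27ac against 9.2%, and 1 for H3K4me1 against 0.902%. H3K27me3 was called higher for 1 gene, against 0.311%. The median difference of the 8 genes was -25.2 percentage points for H3K4me3 and -29.9 for H3K27ac, while the medians over all promoters were -0.15 and 0. The median promoter started from less cover, at 27.5% for H3K4me3 and 5.67% for H3K27ac in controls. The well-covered adipocyte markers described above were also lower in H than in C. Without the 3 animals the calls at H3K4me3 and H3K27me3 stayed at 2 and 1, those at H3K27ac went from 4 to 1 and those at H3K4me1 from 1 to 0.

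Lep had much less active mark in H than in C. Its H3K27ac share was 73.3%, 81.1% and 74.7% in C and 23.2%, 10.8% and 24.6% in H. In the 25-week cohort it was 72.9% and 75.5% in CC_l and 0, 72.9% and 88.9% in HH, the 0 being HH replicate 1. The H and C libraries did not overlap, and neither did their means over all promoters, whereas HH without that animal was not below CC_l. The difference over both cohorts was -38.5 percentage points (exact permutation p = 0.045), and -25.1 (exact p = 0.0833) without the 3 animals. The widest H3K27ac peak at the Lep promoter spanned 16404, 17488 and 10059 bp in C against 1066, 431 and 986 bp in H.

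The same held for H3K4me3 at Lep, with 67.4%, 79.4% and 89.2% in C and 55.2%, 0 and 27.2% in H. HH values of 74.8% and 67.5% lay close to the 70.3% and 81.0% of CC_l. The difference was -27.9 percentage points (exact permutation p = 0.0333). In the Lep body, H3K27ac covered 100%, 100% and 96.0% in C and 32%, 7.40% and 0.412% in H, so the narrowing went beyond the promoter window. Since all promoters were less covered in H, the shares were also divided by the mean of their library, and then neither mark passed at Lep (exact p = 0.405 for H3K27ac and 0.0833 for H3K4me3).

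Retn followed Lep in both marks. Its H3K27ac share was 99.8%, 93.4% and 85.3% in C and 38.7%, 0 and 40.6% in H, and its H3K4me3 share was 85.3%, 84.2% and 88.8% in C and 18.6%, 0 and 57.3% in H. In HH the H3K27ac share was 49.4%, 100% and 93.2%, next to 97.6% and 100% in CC_l. All H libraries thus lay below all C libraries in both marks, as did their means over all promoters. The share of all promoters that separate in this way was not computed. The 2 older groups were near each other apart from HH replicate 1. The differences were -42.2 percentage points for H3K27ac (exact permutation p = 0.035) and -33.9 for H3K4me3 (exact p = 0.0333). Without the 3 animals they were -34.3 (exact p = 0.05) and -33.9 (exact p = 0.0333). Scaled to the library mean, neither passed, with exact p = 0.675 and 0.4. The Retn body was covered by H3K27ac over 100%, 87.1% and 100% in C and 0 in the 3 H libraries.

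Cfd and Rbp4 lost their H3K27ac peaks altogether in H. Cfd had 95.0%, 96.1% and 68.2% in C and 0 in all 3 H libraries, then 100% and 100% in CC_l and 0, 98.1% and 100% in HH. The difference was -60.2 percentage points (exact permutation p = 0.035; -43.7 with exact p = 0.05 without the 3 animals). Rbp4 had 39.0%, 60.1% and 60% in C and 0 in all 3 H libraries, then 63.7% and 66.1% in CC_l and 0, 40.4% and 61.9% in HH. Here every obese library lay below every control of its age. The difference was -41.9 percentage points (exact p = 0.01; -33.4 with exact p = 0.0167 without the 3 animals). Both remained under the threshold when scaled to the library mean, at exact p = 0.04 for Cfd and 0.02 for Rbp4. A share of 0 stays 0 when scaled, so this step could not account for the lower cover of all promoters in H.

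For H3K4me3, Cfd had 81.0%, 90.8% and 70.0% in C and no peak in H, and Rbp4 had 72.8%, 61.2% and 65.0% in C and 22.5%, 14.4% and 33.7% in H. The HH values of Cfd were 100% and 63.4%, and those of Rbp4 were 59.3% and 65.0%, within or near the controls of that age. The differences over both cohorts were -42.7 and -22.5 percentage points, each at exact permutation p = 0.05 and thus not called.

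Apln, the apelin gene, had no H3K4me1 peak in either obese group. It had 43.6%, 0 and 19.4% in C and 44.8% and 35% in CC_l, but 0 in each of the 3 H and 3 HH libraries. The difference was -30.4 percentage points (exact permutation p = 0.02), and the same -30.4 at exact p = 0.0667 without the 3 animals, since only HH replicate 1 left the comparison. For H3K4me3, Apln had 53.9%, 62.8% and 52.6% in C, 0 in all H libraries, 52.2% and 44.3% in CC_l and 0 and 58.0% in HH. That difference was -37.8 (exact p = 0.05). Its H3K27ac was present in only 2 of 21 libraries, C replicate 1 and CC_l replicate 2.

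Nampt, the NAD-producing enzyme, kept its peaks in every H3K4me3 and H3K27ac library and was less covered in H than in C. Its H3K27ac share was 63.5%, 62.5% and 76.2% in C and 32.7%, 19.1% and 25.7% in H, but 76.6% and 72.7% in CC_l and 99.1%, 56.1% and 76.6% in HH. The difference over both cohorts was -19.5 percentage points (exact permutation p = 0.1). Nrg4 was the one gene called for H3K27me3, with 13% and 21.7% in H against 10.6%, 0 and 0 in C, and 33% and 22.3% in HH against 18.0% and 0 in CC_l. The obese libraries lay above the controls of their age in both cohorts, by 16.2 percentage points on average (exact p = 0.0333), and none of the 3 animals entered this comparison. The control peaks and those of H replicate 2 and HH replicate 3 lay only around the upstream of the 2 start sites. H replicate 1 and HH replicate 2 also had a peak at the other site. Since one Nrg4 window overlaps that of Tmem266, this value may not be of Nrg4 alone.

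**Figure D2:**
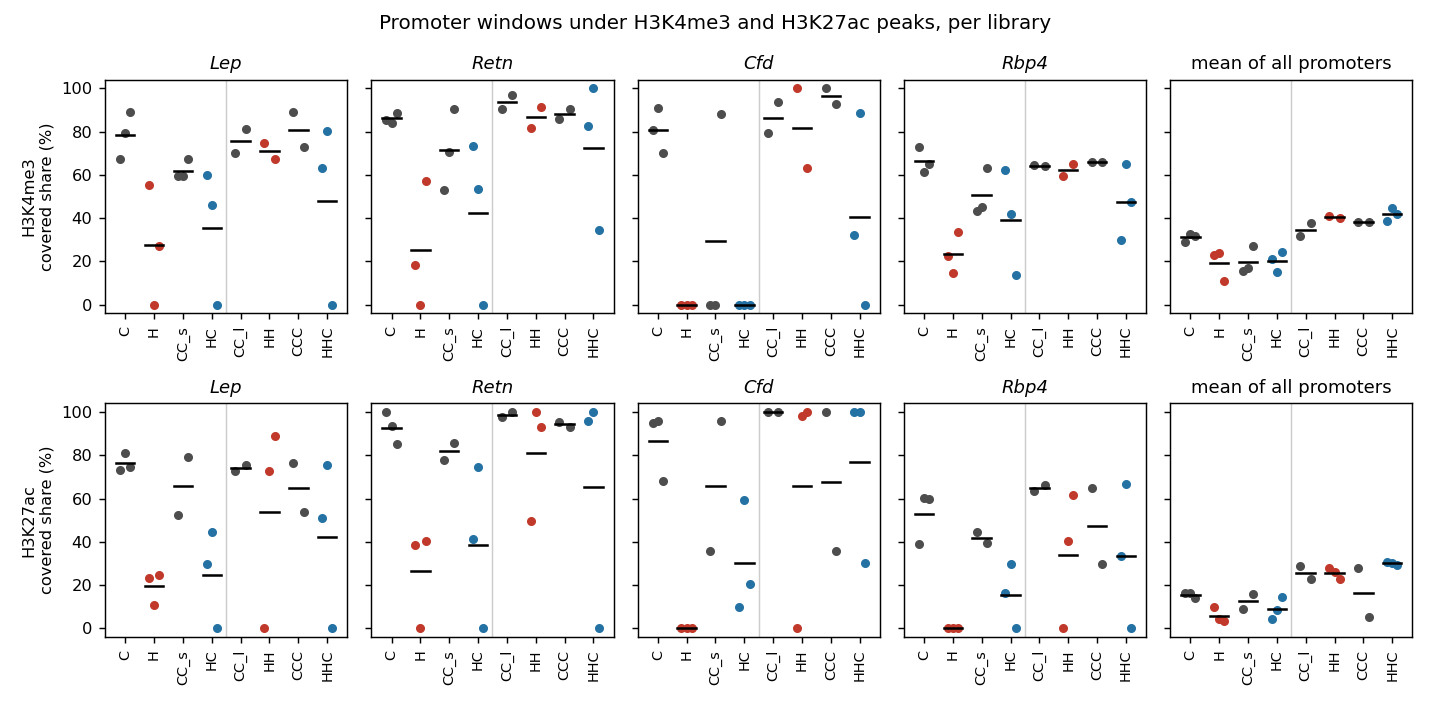
Covered share (%, vertical axes) of the promoter windows of 4 of the genes and, in the last column, the mean over all promoters, for H3K4me3 (upper row) and H3K27ac (lower row). Each point is 1 library of the diet group on the horizontal axis, and the H points lie below all C points for the named genes and for the mean of all promoters.

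Counted by presence alone, H libraries all lacked a peak that all C libraries had at 2 of the 8 promoters for H3K4me3 (Cfd and Apln), against 1.71% of all promoters, and at 2 for H3K27ac (Cfd and Rbp4), against 1.94%. In HH the only such loss was that of H3K4me1 at Apln, against 0.705%. The 12-week losses are set beside a difference between controls, because CC_s lacked H3K4me3 peaks that C had at 1.73% of promoters, though at none of the 8 genes. These controls differed in age and in chow, which cannot be told apart. This comparison shares the C libraries. In it 2.43% of promoters were called lower for H3K4me3 and 1.85% for H3K27ac over both cohorts of controls, with none of the 8 genes among them, although all 8 H3K4me3 differences were below 0. Cfd H3K4me3 was nonetheless 0 in 2 of 3 CC_s libraries and 88.2% in the third.

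After weight loss, HC was compared with CC_s and HHC with CCC. These animals were not those of the obese comparison, and none of the 8 genes was called lower for H3K4me3, where 0.888% of all promoters were, or for H3K27ac, where 0.238% were. For H3K4me1 the count was 1 lower, against 0.352%, and for H3K27me3 it was 1 higher, against 0.595%. All 8 H3K4me3 differences were nevertheless below 0, with a median of -21.2 percentage points, and the H3K27ac median was -16.9, whereas both medians over all promoters were 0. Without the 3 animals those medians were -8.87 and 0, so both were smaller in size without HC replicate 3 and HHC replicate 3. Here too the median promoter started from less cover than the 8 genes.

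The active marks of Lep, Retn, Cfd and Rbp4 in HC and HHC spread widely. Lep H3K27ac was 29.6%, 44.3% and 0 in HC against 52.4% and 79.1% in CC_s, and 51.1%, 75.7% and 0 in HHC against 76.5% and 53.6% in CCC. Retn H3K27ac was 41.1%, 74.8% and 0 in HC against 77.7% and 85.9% in CC_s, but 96.0%, 100% and 0 in HHC against 95.6% and 93.2% in CCC. The zeros were the animals apart, and the other HHC libraries reached the controls at Retn. Rbp4 H3K27ac was 16.5%, 29.6% and 0 in HC against 44.5% and 39.3% in CC_s, with all HC libraries below both controls, and 33.5%, 66.6% and 0 in HHC against 65.0% and 29.7% in CCC, where the groups overlapped. Cfd H3K4me3 was 0 in all 3 HC libraries, and in 2 of 3 CC_s libraries as well.

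The most regular difference after weight loss was polycomb mark at Retn. No H3K27me3 peak lay in the Retn window in the 3 CC_s and 2 CCC libraries, whereas it covered 13%, 15.2% and 21.9% in HC and 71.3%, 44.2% and 41.5% in HHC. All 6 weight-loss libraries were above all 5 controls. The difference was 34.5 percentage points (exact permutation p = 0.005, the smallest this test can give, and 0.854 after adjustment over all promoters). Without the 3 animals it was 35.9 (exact p = 0.0167). Scaled to the library mean the exact p was again 0.005. That outcome was fixed, because scaling leaves control libraries without a peak unchanged. The Retn difference was not called with a window of 500 bp or with only peaks above the median signal. The mean of all promoters went the other way in the 12-week cohort, with 1.26% to 5.41% in HC and 6.65% to 7.67% in CC_s.

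The Retn peaks did not lie at one place. Those of HHC were 2956, 1769 and 1662 bp wide and all covered the stretch from 297 to 1947 bp after the start site, while those of HC were 521, 606 and 878 bp wide, with 1 after and 2 before the start site. In the younger and obese groups Retn H3K27me3 was 0, 0 and 49.4% in C, 21.1% and 0 in H, 0 and 0 in CC_l and 33.2% and 0 in HH. A chow library of the youngest group thus had a value within the range of HHC. Retn was 1 of the promoters with a peak gained in all HC and no CC_s library (0.165% of all promoters), and Retn and Rbp4 were 2 of those gained in HHC against CCC (1.37%).

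Rbp4 H3K27me3 was 92.9%, 35.1% and 32.7% in HHC and 0 in both CCC libraries, but 0, 0 and 0.927% in HC against 0, 25.0% and 0 in CC_s, so its gain was seen in the 25-week cohort and not in the other. The 2 cohorts' differences at this promoter, -8.03 and 53.6 percentage points, did not pass the test against each other (exact permutation p = 0.07). Apln was the gene called for H3K4me1, at 0 in all HC libraries and 0, 33% and 0 in HHC, against 0, 16.3% and 2.85% in CC_s and 61.6% and 62.8% in CCC. The difference was -28.8 percentage points (exact permutation p = 0.04), and -26.0 (exact p = 0.117) without the 3 animals.

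**Figure D3:**
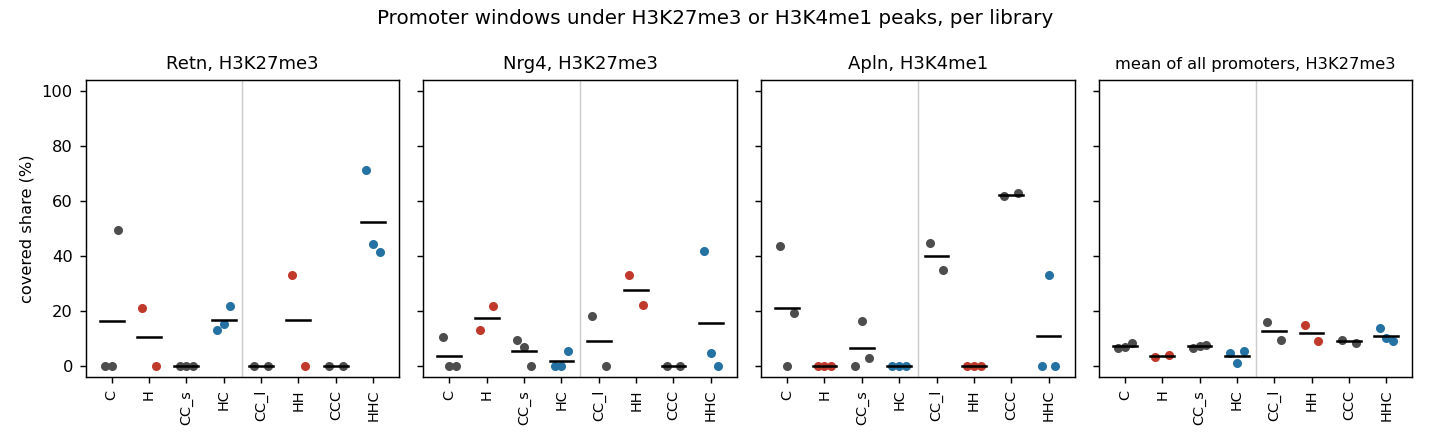
Covered share (%, vertical axes) of the promoter windows of Retn and Nrg4 for H3K27me3 and of Apln for H3K4me1, and the mean over all promoters for H3K27me3, with 1 point per library by diet group. Retn is at 0 in CC_s and CCC and at 13% to 71.3% in HC and HHC, and Apln H3K4me1 is at 0 in all H, HH and HC libraries.

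Enhancers can lie far from the gene they serve, so the flanks were tested in the same way, over all 21851 genes. In obese mice H3K27ac in the flanks was called lower for 6 of the 8 genes, where 17.2% of all genes were, and was below 0 in difference for all 8. H3K4me1 was called lower for 3 (5.48% of all genes), H3K4me3 for 1 (2.55%) and H3K27me3 higher for none (1.31%). Without the 3 animals 4, 2 and 1 of these calls remained for H3K27ac, H3K4me1 and H3K4me3. Between chow controls (CC_s against C, CCC against CC_l) all 8 H3K27ac flank differences were below 0 as well. Their median was -4.95 percentage points, against -7.95 in obese mice, and 1 gene was called lower (2.57% of all genes). For H3K4me3 7 of these control differences were below 0 and 1 was called lower (1.95%). For H3K4me1 6 were above 0 and none was called. After weight loss no flank was called lower for H3K4me3 (1.17%), H3K27ac (0.462%) or H3K4me1 (1.4%), and 2 were called higher for H3K27me3 (3.39%). Adjusted over all genes none passed, the lowest adjusted exact p being 0.127.

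Around Cfd the H3K27ac share of the flanks was 31.1%, 27% and 14.4% in C and 10.0%, 2.92% and 2.81% in H, and 40.9% and 41% in CC_l against 37.0%, 30.7% and 24.1% in HH. Every obese library lay below its controls, with a difference of -14.6 percentage points (exact permutation p = 0.01; -16.2 with exact p = 0.0167 without the 3 animals). Its H3K4me1 difference was -6.20 (exact p = 0.025; exact p = 0.0667 without them). Promoters of 9 other genes lie in the Cfd flanks, among them Prtn3 and Elane, and 8 lie in those of Retn, so these values are not of the adipokine genes alone.

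Nampt has no other promoter in its flanks. Its H3K27ac share there was 12.3%, 17.5% and 11.9% in C and 2.85%, 1.16% and 3.95% in H, and 23.6% and 22.3% in CC_l against 8.65%, 19.5% and 21.2% in HH. The difference was -8.89 percentage points (exact permutation p = 0.015), and its H3K4me1 difference was -5.67 (exact p = 0.02). These were, without the 3 animals, -6.94 (exact p = 0.0167) and -4.56 (exact p = 0.0333), and HH replicate 1 held the lowest of the HH values. Rbp4 had differences of -3.99 for H3K27ac (exact p = 0.025) and -4.25 for H3K4me1 (exact p = 0.03), and Nrg4 had -2.47 for H3K27ac (exact p = 0.005), the lowest p the test can give. These 3 stayed called without the 3 animals. Apln, also without another promoter near, had -1.69 (exact p = 0.02), with no H3K27ac peak in its flanks in any H or HH library. Retn had -7.01 for H3K27ac (exact p = 0.03). Neither Apln nor Retn was called without the 3 animals (exact p = 0.0667 each). For Retn, when scaled to the library mean, the exact p was 0.89, and for Nampt it was 0.2, while Cfd, Rbp4, Apln and Nrg4 stayed under the threshold. Scaling leaves the Apln flanks without a peak unchanged. Lep was called for H3K4me3 alone, with a difference of -6.87 (exact p = 0.0333) from 9.48%, 17.3% and 12.8% in C and 1.60%, 0.297% and 1.81% in H.

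H3K27me3 in the flanks was higher on average in the diet groups. In both the obese and the weight-loss comparison all 8 differences were above 0, with medians of 1.28 and 3.20 percentage points against 0 and 0.171 over all genes. After weight loss the Rbp4 flanks held 0.568%, 0.409% and 7.68% in HC against 0 in the 3 CC_s libraries, and 9.85%, 6.33% and 13.5% in HHC against 4.13% and 0 in CCC, and the groups did not overlap. The difference was 5.35 percentage points (exact permutation p = 0.025), and 3.25 (exact p = 0.0167) without the 3 animals. Nrg4 had a difference of 5.12 (exact p = 0.035), and of 3.92 (exact p = 0.217) without those animals.

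**Figure D4:**
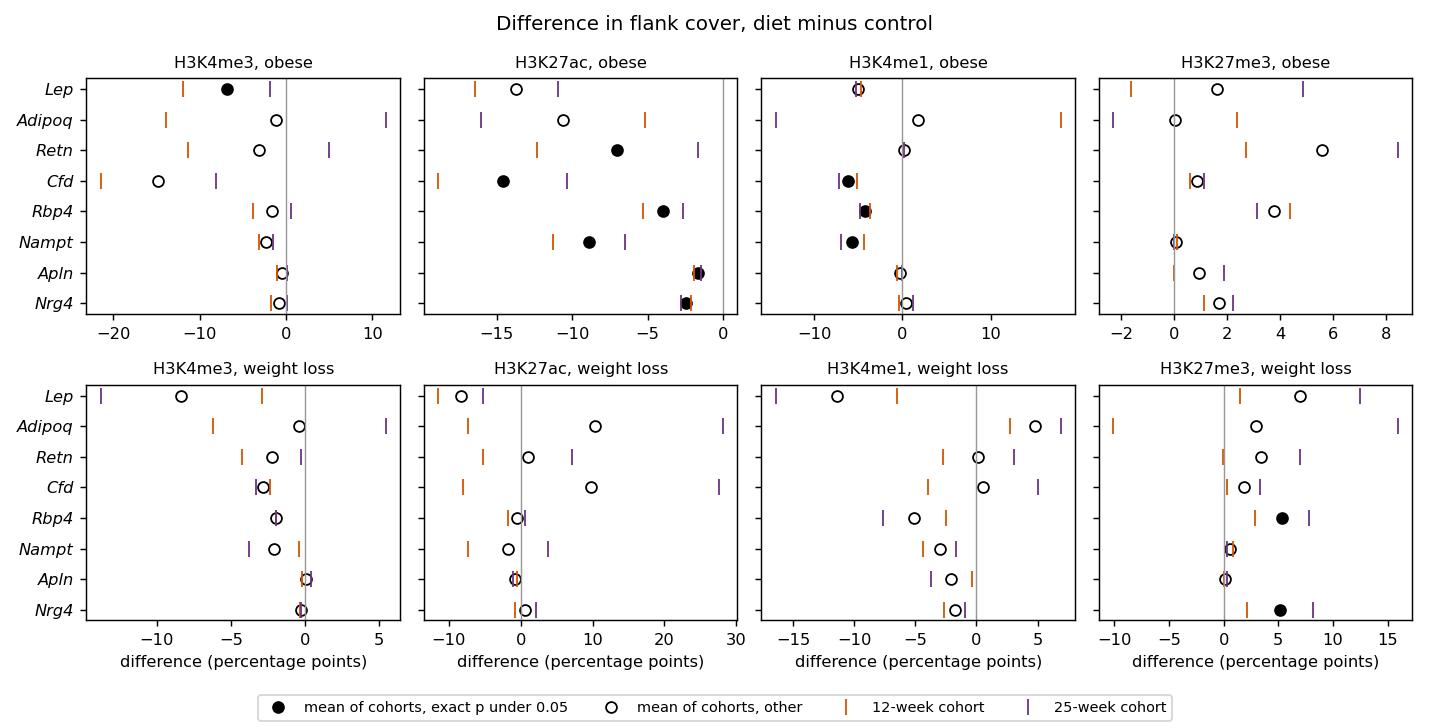
Difference in the covered share of the 50 kb flanks, diet minus control, in percentage points (horizontal axes), for each gene (vertical axes), with 1 column per mark and 1 row for the obese and 1 for the weight-loss comparison. Circles are the mean of the cohorts, filled where the exact p was under 0.05, and ticks give each cohort, and the H3K27ac circles of the obese row lie left of 0 while the H3K27me3 circles of both rows lie right of it.

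Peaks of all libraries were also merged into regions, which places the flank differences. Of 69 merged H3K4me3 regions at the genes and in their flanks, 4 had a peak in every C and no H library, where 2.89% of such regions genome-wide did. Of these, 3 lay around Lep, at chr6:29042082-29045286, chr6:29080255-29083850 and chr6:29116293-29119763, and 1 inside Nrg4 at chr9:55254924-55258178. The first of the Lep regions had a peak in all 3 CC_s and 2 of 3 HC libraries, and the second in none of them. All 3 had a peak in both libraries of CC_l, HH and CCC. Of 62 H3K27ac regions 3 were lost in H (2.88% genome-wide), namely chr8:3629727-3634191 near Retn, which touches the Stxbp2 promoter, chr12:32831898-32838222 inside Nampt and chr9:55213875-55224858 at the end of Nrg4. Of 55 H3K4me1 regions 1 was lost in H (0.934%), chr6:29062699-29076544 over the body of Lep. In the same comparison 1 was gained (1.02%), chr16:23200027-23207321 after Adipoq. The other groups had gains of 3 H3K4me3 regions in HH (3.61%), 1 H3K27ac region in HC (0.197%) and 2 in HHC (2.64%). Their losses were 2 H3K4me3 regions in HHC (3.17%), 1 H3K27ac region in HH (2.18%) and 1 H3K4me1 region in HHC (1.96%).

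H3K27me3 regions of these genes were gained in 3 of the 4 diet comparisons. Of 105 such regions none was lost in any of the 4 diet comparisons, where the genome-wide lost shares were 1.69% for H, 1.87% for HH, 0.919% for HC and 1.38% for HHC. A loss needs a peak in every control library of a comparison, which few of these regions had, so the absence of losses is a description. Of the same regions 2 were gained in H (0.588% genome-wide), 3 in HH (1.18%) and 4 in HHC (1.06%). Those of HHC were chr6:29074347-29084904 after Lep, chr10:79918721-79924002 at the R3hdm4 and Kiss1r promoters near Cfd, and chr9:55335511-55342549 and chr9:55355206-55358759 before Nrg4. The last of these had a peak in all 3 HHC libraries and in no other of the 20.

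Other genes of the adipokine pathways were read from lists by name. Among 24 other secreted adipose factors, 4 were lower and 1 higher for H3K27ac in obese mice, against 9.2% and 0.348% of all promoters. The list median was 0, as over all promoters. Agt, which encodes angiotensinogen, the precursor of angiotensin, had H3K27ac means of 9.01% in H against 75.6% in C and 44.8% in HH against 100% in CC_l, a difference of -60.9 percentage points (exact permutation p = 0.01). Its H3K4me3 and H3K4me1 differences were -55.3 (exact p = 0.0167) and -54.7 (exact p = 0.01), and all 3 stayed called without the 3 animals. After weight loss, in other animals, Agt was lower as well, with differences of -53.1 for H3K27ac (exact p = 0.03) and -29.6 for H3K4me3 (exact p = 0.025). Without the 3 animals these had exact p = 0.111 and 0.0833. The H3K27ac test after weight loss then holds too few libraries to give any gene an exact p under 0.05. The angiogenic factor Vegfa had -52.4 for H3K27ac in obese mice (exact p = 0.015, and -42.8 at exact p = 0.0167 without the 3 animals). Sfrp5, a secreted Wnt antagonist, had 47.3 for H3K27me3 after weight loss (exact p = 0.01), but 44.9 at exact p = 0.05 without the 3 animals. The cytokine gene Tnf gained an H3K4me3 peak in HH (1.32% of all promoters did) and an H3K27ac peak in HHC (2.32%), groups whose macrophage markers also had peaks.

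Of 14 transcription and secretion factors for adipokines, 6 were lower for H3K27ac in obese mice and none higher, against 9.2% and 0.348% of all promoters, with a median of -21.7 percentage points against 0 over all promoters. They included Klf15 (-42.5, exact permutation p = 0.03), Foxo1 (-30.2, exact p = 0.04) and Pparg, the master regulator of fat cell formation (-28.9, exact p = 0.045). Klf15 stayed called without the 3 animals (-33.2, exact p = 0.0333), while Foxo1 (-27.7, exact p = 0.1) and Pparg (-20.4, exact p = 0.05) did not. None of these 14 was called for H3K27ac after weight loss, where the median was -2.29. In HHC, H3K27me3 was gained at Klf15 and H3K4me1 at Foxo1 and at Ero1l, an oxidase gene of the secretory pathway, where 3.98% of all promoters gained H3K4me1. Of 5 complement genes 1 was lower for H3K27ac in obese mice, against 9.2% of all promoters. This was Cfb, which encodes the factor B that adipsin cleaves, with a difference of -47.8 (exact permutation p = 0.01). Without the 3 animals it was -37.7 (exact p = 0.0167). Cfp and C5ar2 of that list gained H3K4me3 peaks in HH, and Cfp gained one in HHC too (1.39% of all promoters did), while C5ar2 gained H3K27ac there. Cfp, encoding properdin, and C5ar2, a complement receptor gene, are active in immune cells.

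Of 14 adipokine receptors 3 were lower for H3K27ac in obese mice, where 9.2% of all promoters were, among them the chemerin receptor Cmklr1 at -35.2 (exact permutation p = 0.015). Cmklr1 stayed called without the 3 animals (exact p = 0.0333) and the other two, Adipor2 and Cap1, did not (exact p = 0.0833 each). Erbb4, the receptor of neuregulin 4, lost its H3K4me3 peak in H, with means of 0 against 70.2% in C and 58.1% in HH against 84.8% in CC_l (difference -48.4, exact p = 0.0167). Cdh13, encoding the adiponectin-binding T-cadherin, had less H3K27me3 in obese mice (-36.0, exact p = 0.0167, with 2.34% of all promoters lower) and after weight loss (-45.3, exact p = 0.005, with 3.28% lower), and both stayed called without the 3 animals. Adipor1, an adiponectin receptor, had more H3K4me1 after weight loss (30.6, exact p = 0.015, with 0.81% of all promoters higher), but 25.3 with exact p = 0.0833 without the 3 animals. Stra6l, a relative of the RBP4 receptor gene, gained H3K27me3 in HHC. Of 9 C1q/TNF-related genes, which are paralogs of Adipoq, C1qtnf12 was lower for H3K27ac in obese mice, where 9.2% of all promoters were. Its difference was -30.8 (exact permutation p = 0.03), and -27.9 (exact p = 0.05) without the 3 animals. C1qtnf3 and C1qtnf7 were lower for H3K27me3 after weight loss, where 3.28% of all promoters were. Their differences were -56.6 (exact p = 0.01) and -26.7 (exact p = 0.005), both at exact p = 0.0167 without the 3 animals. In HH, C1qtnf2 gained and C1qtnf4 lost an H3K4me3 peak (0.481% of all promoters lost one), and C1qtnf9 lost H3K27me3 in HHC (0.732%).

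The genes whose promoter cover was most like that of each adipokine gene over the 84 libraries were found by Pearson's r after centring and scaling within each mark. These values are descriptions, and libraries share depth and animals. For Retn they were Slc36a2 (r = 0.799), Slc2a4, which encodes the insulin-responsive glucose transporter (r = 0.786), and Cidec, a lipid droplet protein gene (r = 0.773). For Lep they were Cachd1 (r = 0.754), the lactate receptor gene Hcar1 (r = 0.746) and Slc22a3 (r = 0.74). Adipoq was nearest to Pck1 (r = 0.631), Plin1 (r = 0.555) and Lgals12 (r = 0.547), a weaker likeness than that of the other genes. Cfd was nearest to Glrx3 (r = 0.858), the niacin receptor gene Hcar2 (r = 0.853) and Gm21885 (r = 0.85), and Rbp4 to Fgf10 (r = 0.826), Nr2f2 (r = 0.792) and Tspan12 (r = 0.787). Nampt was nearest to Cdkn2aip (r = 0.816), Ikbkg (r = 0.816) and Ginm1 (r = 0.815), Apln to Nr2f1 (r = 0.73), Ripk4 (r = 0.7) and Pcsk6 (r = 0.685), and Nrg4 to Cpeb1 (r = 0.752), Tcf7l2 (r = 0.741) and Ppara (r = 0.732).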

How the data were processed

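H3K4me3, H3K27ac, H3K4me1 and H3K27me3 were profiled by CUT&Tag in 21, 21, 22 and 20 libraries. Per the labels and the study's methods the authors trimmed reads (Trim Galore 0.6.6), aligned them to GRCm38 (Bowtie2 2.4.4, SAMtools 1.13), made coverage tracks (bedtools 2.30) and called peaks in each library alone (SEACR 1.3, stringent, threshold 0.01). The deposited columns are the summed and highest signal of each peak, whole-number coverage that is not scaled between libraries. It was used only for ranks within a library and to choose the strongest peaks. The lists hold no read counts, so depth is unknown and precision rests on the number of libraries.

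Presence was an overlap of at least 1 bp with a window of 2000 bp around each of 41438 GENCODE M21 start sites. Flanks were 50 kb, less the gene and its own windows. Titles gave the groups. In 4 of the H3K4me3 lists, both of HH and 1 each of CC_l and CCC, the treatment field disagrees with the title, and its groups were run as an alternative. Cohort and library preparation cannot be told apart, so labels were permuted within cohorts only. The exact permutation test ran over all 21851 genes and was tested on simulated data beforehand. The genes, lists and tests were chosen with earlier results of these data known. From each list at most 3 genes per comparison are named, those with exact p under 0.05 or a gained or lost peak, by size of the difference. For each gene the 3 most alike by Pearson's r are named, on other chromosomes or over 100 kb away. Merged regions are named at most 3 per gene and mark, for the comparisons that the text treats. Alternatives were other windows, flanks and overlaps, equal numbers of peaks, the stronger peaks (those above the median total signal), scaling, ranks, the treatment field, a replicate block and leaving out libraries. Same-numbered libraries of different groups did not deviate together (median r 0.00015 over 36 pairs, 9 above 0.1), so replicate numbers were not taken to pair animals. Python 3.11.15, numpy 2.4.6, pandas 2.3.3 and matplotlib 3.10.9 were used.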

Additional observations from a re-analysis of the deposited data

Results flagged for a closer look

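The obese difference was compared between cohorts in 128 tests on the 8 genes (4 marks, promoter and flank, obese and weight-loss comparisons), and 5 had an exact permutation p under 0.05, none after adjustment over the 128 (lowest adjusted exact p = 0.8). At the Nampt promoter the H3K4me3 difference was -29.4 percentage points in the 12-week cohort and 7.79 in the 25-week cohort, 37.2 apart (exact p = 0.0167). For H3K27ac at the same promoter it was -41.5 and 2.61, 44.1 apart (exact p = 0.04). In the Retn flanks the H3K4me3 difference was -11.3 and 5.05, 16.4 apart (exact p = 0.0167). In the Rbp4 flanks the H3K4me3 difference was -3.84 and 0.554, 4.39 apart (exact p = 0.0333). Around Apln it was -1.05 and 0.158, 1.21 apart (exact p = 0.0333).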

How the results depend on the processing

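The 22 gene, mark and comparison results under an exact p of 0.05 (8 obese and 2 weight-loss promoters, 10 obese and 2 weight-loss flanks) kept their direction under every alternative run, but not all kept their call. For obese promoters the count of 8 became 2 with a window of 1000 bp, 1 with 500 bp, 4 without the 3 animals apart (chosen after seeing the data) and 1 to 7 with 1 library left out, the lowest without CC_l replicate 2. For weight-loss promoters the count of 2 became 1 with 1000 bp, 0 with 500 bp, 1 with equal numbers of peaks, 0 with only peaks above the median signal, 4 by signal rank, 1 without the 3 animals and 1 to 3 with 1 library left out. For obese flanks the count of 10 became 4 to 9 with 1 library left out, the lowest without CC_l replicate 2 or H replicate 2. For weight-loss flanks the count of 2 became 1 without other promoters in the flanks, 0 with only peaks above the median signal, 9 when scaled to the library mean, 1 without the 3 animals and 0 to 4 with 1 library left out. These counts may include genes called only under the alternative. Of the 22 results themselves, 14 stayed called with equal numbers of peaks, 13 with only peaks above the median signal and 15 when scaled to the library mean. Of the flank results 7 stayed called with flanks of 20 kb and 5 did not, and without other promoters in the flanks 9 stayed called and 3 did not. The cause of these shifts was not tested. By the treatment field, Lep and Retn H3K4me3 promoters (exact p = 0.167 and 0.0833) and the Lep H3K4me3 flank (exact p = 0.4) were no longer called. The 8 gained or lost peaks stayed 8 when 500 bp were asked for.

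With the replicate number as a block, 22 of 22 results were no longer called, since the smallest exact p that pairs allow is 0.0625, 0.125 or 0.25; Retn H3K27me3 after weight loss had 36.6 percentage points (exact p = 0.0625).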
